A study of Gallus gallus with 12 samples.

Results

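The back skin of White Leghorn chicken embryos was compared between embryonic day 7 (E7, Hamburger and Hamilton stage 31) and embryonic day 9 (E9, stage 35), the interval in which feather buds form along the back. The comparison rested on 4 of the 12 libraries of the series, chosen by their labels: dorsal E7 replicates 1 and 2 and dorsal E9 replicates 1 and 2. All embryos were untreated and of the same breed, no mutant or transgene was involved, and the labels give neither the sex of the embryos nor how many were pooled. Skin of the thigh and wing at E9, and of the scale-forming lower leg at E9 and E11, supplied the other 8 libraries, which shared the estimate of the spread. Nothing in the labels says that the replicates of an age came from separate embryos, so the p-values measure the spread between these libraries, which may be technical.

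Feather buds arise where the epidermis thickens into a placode above a condensation of dermal cells. The placode and the condensation exchange signals of the WNT, ectodysplasin (EDA), FGF, BMP, NOTCH and hedgehog families, in which activators favour a bud and BMP ligands restrain its neighbours. As the bud grows out, dermal smooth muscle that moves feathers, blood vessels and nerves form in the surrounding skin.

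The sample titles name dermis and the tissue labels name skin. All 29 measured markers of keratinocytes and all 22 of dermal fibroblasts were above 0 in both age groups. So were all measured markers of cartilage, tendon and skeletal muscle, so this does not show which layers the samples held. At E7 the keratinocyte markers summed to 361 and 420 CPM and the fibroblast markers to 18960 and 16961 CPM. The 4 dorsal libraries held 13164611 to 18942217 reads, and 3 reads, the limit that a count of 0 allows, equalled 0.153 to 0.221 CPM, for counting error only. CPM is the deposited read count scaled to an effective library size, and the deposited values of 2 replicates ranked genes alike, with a Spearman coefficient across genes of 0.996 at E7 and 0.990 at E9. Log2 changes are E9 minus E7 on the log2(CPM + 1) scale, which understates the change of genes at low CPM. In bulk skin, fewer cells of a type and less RNA per cell cannot be told apart.

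Some rows, in part sex-linked, fell under a set limit in the dorsal E9 libraries alone. The rows under 1 CPM in both dorsal E9 libraries and at 1 CPM or more in the 10 other libraries numbered 38, and together they stood at 477.7 and 751.3 CPM in dorsal E7, at 10 and 10.2 CPM in dorsal E9, and at 511.3 to 1236.3 CPM elsewhere. The reference placed 5 of them on chromosome W, which hens carry, and 11 on autosomes, and 22 had no place in it. These 38 rows were set aside from all counts, although 33 of them passed the test. The rows just inside the rule included ABLIM1, with a highest dorsal E9 value of 0.980 CPM, and AMY2A and CHL1 stood just outside at 1.02 CPM. Chromosome Z rows, of which 503 were tested, had a median log2 change of 0.24, and 17.5% of them were higher at E9 and 7.16% lower. Among 9944 autosomal rows the median was 0.02, with 11.8% higher and 8.03% lower. The Z rows' median over that of autosomes, as log2 difference from each row's mean over the libraries, was 0.16 and 0.21 in dorsal E9, and 0.03 and -0.11 in dorsal E7. It lay between -0.20 and 0.12 in the 8 other libraries, with 0.12 in thigh E9 replicate 2 and 0.11 in scale E11 replicate 2. The dorsal E9 values were thus the highest of all libraries, with those 2 next. Changes were above 0 in 69.0% of Z rows and in 52.2% of autosomal rows. The gap of the 38 rows was fixed by the rule that chose them. Of the rows placed on W, HNRPK stood at 90.7 and 161 CPM in dorsal E7 and at 0.660 and 0.670 CPM in dorsal E9. SPINW, also on W, stood at 17.0 and 28.1 CPM and then at 0.260 and 0.150 CPM. An effect of age and an effect of the embryos' sex therefore cannot be told apart in this comparison. Genes on Z are marked as such where they are named, and the part of the embryos' sex in each result was not tested.

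Of 12239 rows tested and counted, 2438 (19.9%) passed an adjusted p of 0.05 in limma, 1494 (12.2%) higher at E9 and 944 (7.71%) lower. The median log2 change over all of them was 0.03. Changes of at least 2-fold numbered 891 higher and 380 lower, and changes of at least 8-fold numbered 70 higher and 13 lower. In every called row both libraries of one age stood above both of the other, which was also so in 70.4% of all rows tested. A lack of overlap in a called gene therefore adds nothing to its call. At the edge of the threshold, SLC24A3 was called at a log2 change of 0.88 (adjusted p = 0.0499) and KCTD9 was not at 0.47 (adjusted p = 0.05). With dorsal E7 replicate 1 left out 1273 rows were called, with dorsal E7 replicate 2 left out 1397, and with dorsal E9 replicate 1 left out 1344. With only the 4 dorsal libraries in the fit, 4371 rows were called.

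**Figure D1:**
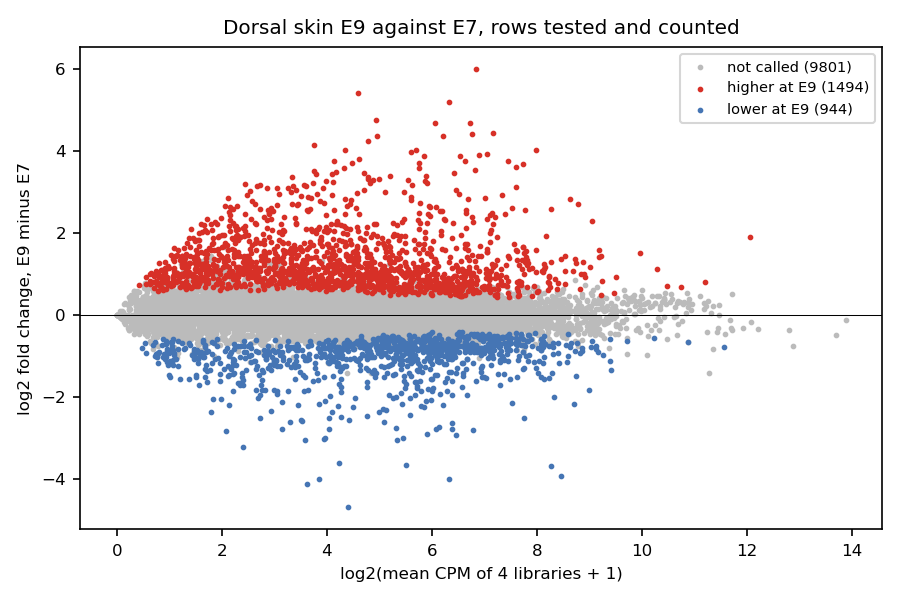
Each point is 1 of the 12239 rows, with log2 of the mean CPM of the 4 dorsal libraries plus 1 on the x axis and the log2 change from E7 to E9 on the y axis. Red marks the 1494 rows higher at E9, blue the 944 lower and grey the rows that were not called; more rows lie beyond a change of 2 above the zero line than below it.

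The genes with the largest increases included transcription factors of the bud dermis and epidermis. TRPS1, a GATA-type repressor whose loss disturbs hair growth in people, stood at 3.31 and 3.13 CPM at E7 and at 134 and 177 CPM at E9, a log2 change of 5.20 (SE 0.31, adjusted p = 1.84e-07). FOXD1, a forkhead factor of condensed dermis, encoded on Z, rose from 4.19 and 6.08 CPM to 99.4 and 94.8 CPM, by 4.02 (SE 0.22, adjusted p = 8.52e-08). TFAP2C, an AP-2 factor of epidermis that is also on the list of dermal condensation genes, stood at 4.05 and 3.92 CPM and then at 138 and 116 CPM (4.68, SE 0.23, adjusted p = 3.12e-08). The ages did not overlap for these 3 factors, as the rule for naming the largest changes required.

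Several secreted and matrix proteins were among the 15 largest increases. The largest change of all named genes was in MASP1, a serine protease of the lectin pathway of complement, at 2.87 and 2.10 CPM at E7 and 255 and 194 CPM at E9 (6.01, SE 0.28, adjusted p = 3.12e-08). TNC, the matrix glycoprotein tenascin-C, stood at 29.0 and 27.9 CPM and then at 454 and 507 CPM (4.03, SE 0.29). ADAMTS17, a secreted metalloprotease, rose from 6.03 and 7.45 CPM to 169 and 234 CPM (4.70, SE 0.24). In each of these genes the lower E9 library exceeded the higher E7 library more than 10-fold. SPON2, a matrix protein, PXDNL, a peroxidasin homologue, STOM, a membrane scaffold, and the uncharacterised KIAA0408 rose by 4.25 to 4.44.

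**Figure D2:**
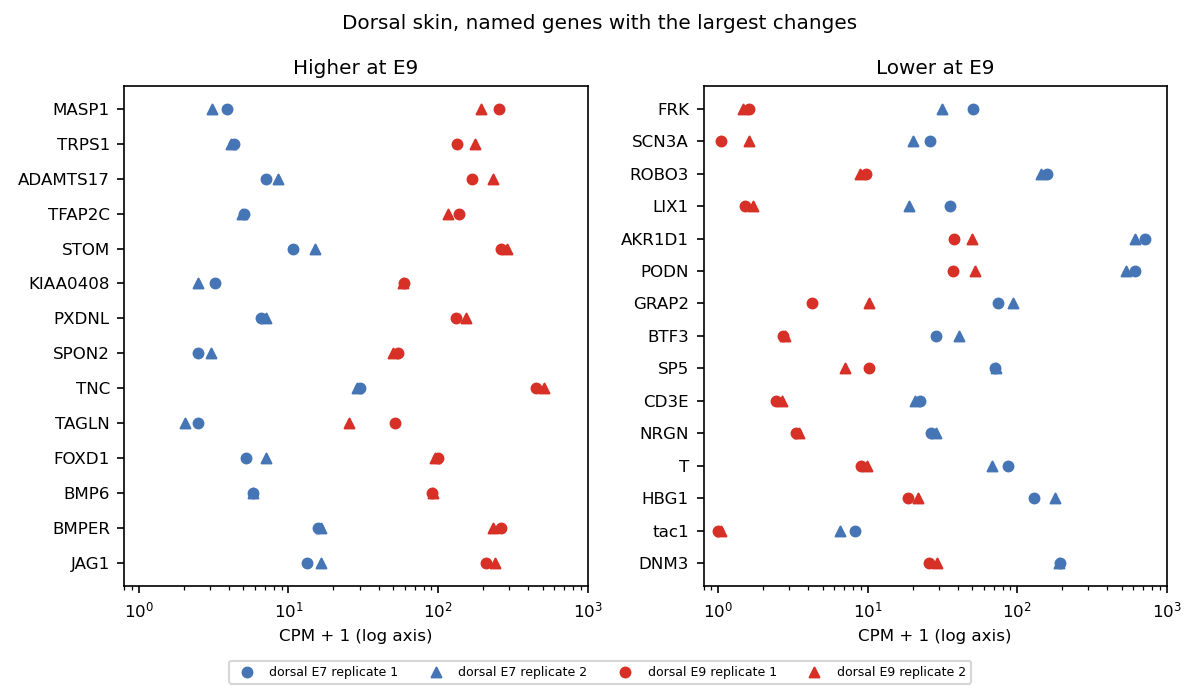
CPM plus 1 on a log axis in the 4 dorsal libraries for the genes with the largest increase (left, 14 shown) and the 15 with the largest decrease (right) that met the rule for named genes. Blue is E7 and red E9, circles are replicate 1 and triangles replicate 2. No gene shown has overlapping ages, as the rule required.

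The largest decreases fell on genes of varied known roles. FRK, a Src-related tyrosine kinase, stood at 49.5 and 30.5 CPM at E7 and at 0.610 and 0.460 CPM at E9 (log2 change -4.70, SE 0.23, adjusted p = 3.12e-08). ROBO3, an axon guidance receptor of the Slit receptor family, fell from 158 and 144 CPM to 8.73 and 7.96 CPM (-4.02, SE 0.25). PODN, the small leucine-rich proteoglycan podocan, fell from 614 and 530 CPM to 36.5 and 51.2 CPM (-3.69, SE 0.17). As the rule required, the ages did not overlap in any of the 3, and FRK was under 1 CPM in both E9 libraries. AKR1D1, a steroid reductase, stood at 712 and 615 CPM and then at 36.6 and 49.1 CPM (-3.93, SE 0.24). T, the mesoderm factor brachyury, stood at 86.2 and 67.1 CPM and then at 8.02 and 8.98 CPM (-3.02, SE 0.21). SCN3A, a sodium channel, LIX1 on Z, and GRAP2 and CD3E, an adaptor and a receptor chain known from T cells, fell by between 3.07 and 4.14. The remaining ones were the synaptic protein NRGN, the tachykinin precursor tac1, the dynamin DNM3 and HBG1, a globin, with changes of -3.03 to -2.82. BTF3, a transcription cofactor that the reference places on Z by its symbol, stood at 1.74 and 1.80 CPM in dorsal E9. In each of the 10 other libraries it stood at 17.7 CPM or more. This was the pattern of the rows set aside, and BTF3 was counted only because it lay just above their limit of 1 CPM. Whether its reads came from Z was not tested.

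Of 7 EDA pathway genes tested, 1 (14.3%) was higher and 1 (14.3%) lower, against 12.2% and 7.71% of all rows. Edar, the receptor through which EDA acts in the placode, stood at 4.86 and 5.86 CPM at E7 and at 61.6 and 70.2 CPM at E9 (log2 change 3.40, SE 0.41, adjusted p = 6.87e-05). The 8 libraries of other skin held 2.70 to 10.1 CPM of it, on both sides of the dorsal E7 values and all below the dorsal E9 values. Its ligand gene EDA stood at 54.0 and 70.1 CPM and then at 100 and 77.6 CPM, a difference that was not called (0.51, SE 0.30, adjusted p = 0.278). At about the same change it was called higher with edgeR (adjusted p = 0.0384), with DESeq2 (0.0195), without the thigh libraries (0.0307) and with only the 4 dorsal libraries (0.0417). TNFRSF19, a related receptor, was lower at E9 (-1.07, adjusted p = 0.00337), but its call was lost without dorsal E7 replicate 1 (adjusted p = 0.0542) or dorsal E9 replicate 1 (adjusted p = 0.0539). EDA2R was not called (0.82, adjusted p = 0.0666), but it was with edgeR (0.0376), without the thigh libraries (0.0361), with the replicate block (0.0432) and without dorsal E9 replicate 2 (0.0179). Between 1 and 3 members of the list were higher across these settings. The downstream genes TRAF6, NFKBIA and NFKB1 had changes between -0.07 and 0.09.

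WNT pathway genes changed in both directions, and the direction of the calls differed by the role assigned to them. Of 48 members tested, 16 (33.3%) were higher and 9 (18.8%) lower, against 12.2% and 7.71% of all rows, with a median change of 0.01. All 6 called secreted inhibitors, of 9 tested, were higher at E9, while all 5 called target genes, of 7 tested, were lower. This split depends on the roles assigned, since RNF43 and APCDD1, which act against WNT signals, were counted as targets. The list was also chosen with earlier results of these data known, so the split is no independent evidence. SFRP2, a secreted Frizzled-related inhibitor, stood at 38.9 and 38.2 CPM at E7 and at 381 and 313 CPM at E9 (log2 change 3.13, SE 0.22, adjusted p = 6.96e-07). SOSTDC1, an inhibitor of both WNT and BMP signals, was low at E7, at 1.69 and 0.970 CPM, and stood at 29.3 and 12.8 CPM at E9 (3.15, SE 0.36). As in every called row their ages did not overlap, although the 2 E9 libraries of SOSTDC1 differed more than 2-fold. DKK3, FRZB and SFRP1, further secreted antagonists, rose by 1.59, 1.26 and 0.99. Of the targets, SP5, a transcription factor induced directly by WNT signals, stood at 70.4 and 71.0 CPM and then at 9.24 and 6.11 CPM (-3.07, SE 0.32, adjusted p = 1.99e-05). RNF43, a ubiquitin ligase that removes WNT receptors, stood at 16.9 and 17.1 CPM and then at 2.86 and 2.98 CPM (-2.20, SE 0.30). APCDD1, a membrane inhibitor induced by WNT signals, fell from 931 and 1038 CPM to 343 and 430 CPM (-1.35, SE 0.22).

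The ligands and receptors of the pathway were mixed. WNT5A, a ligand of non-canonical signalling, stood at 97.4 and 97.5 CPM at E7 and at 337 and 253 CPM at E9 (1.57, SE 0.16), and RSPO2, an R-spondin that amplifies WNT signals, rose by 1.93 (SE 0.19). WNT9a stood at 27.8 and 30.5 CPM and then at 3.68 and 7.91 CPM (-2.22, SE 0.33), and WNT2B fell by 1.39 (SE 0.29). LGR5, a receptor of R-spondins, stood at 102 and 75.1 CPM and then at 584 and 478 CPM (2.58, SE 0.35), whereas FZD3, a Frizzled receptor, fell by 1.86 (SE 0.21). These calls held when any 1 dorsal library was left out. Without dorsal E7 replicate 1 or replicate 2, 11 members of the list were higher.

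Among BMP and TGF-beta genes 14 of 44 members (31.8%) were higher and 10 (22.7%) lower, with a median of 0.18. The shares of all rows were 12.2% and 7.71%. BMP6 had closely spaced replicates, at 4.78 and 4.83 CPM at E7 and 89.8 and 91.2 CPM at E9 (log2 change 3.98, SE 0.16, adjusted p = 2.20e-08). GDF10, a related ligand, stood at 2.13 and 2.10 CPM and then at 48.1 and 32.6 CPM (3.71, SE 0.27). BMP4, a ligand that restrains placodes in chick skin, stood at 22.3 and 35.4 CPM and then at 129 and 95.6 CPM (1.95, SE 0.22), and BMP5 rose by 2.05 (SE 0.38). All 4 rose without overlap, as did every row called higher. BMP2 (-0.92) and BMP7 (-0.83) were lower at E9, but without dorsal E7 replicate 2 their adjusted p was 0.115 and 0.32, and without dorsal E9 replicate 1 it was 0.123 and 0.249.

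Of 15 antagonists tested, 7 were higher and 3 lower, and of 11 ligands 5 were higher and 4 lower. The shares of all rows were again 12.2% higher and 7.71% lower. BMPER, a secreted modulator that binds BMPs, stood at 14.8 and 15.5 CPM at E7 and at 262 and 232 CPM at E9 (3.94, SE 0.17, adjusted p = 3.12e-08). FST, follistatin, encoded on Z, stood at 15.8 and 19.7 CPM and then at 98.1 and 106 CPM (2.47, SE 0.23), and CHRDL1, a chordin-like antagonist, rose by 2.93 (SE 0.51) from 1.55 and 4.38 CPM. MSX2, a homeobox target of BMP signals, was close to the detection limit at E7, at 0.150 and 0.340 CPM, and stood at 5.72 and 4.41 CPM at E9 (2.28, SE 0.32). The 10 lower calls in the pathway were 3 without dorsal E7 replicate 1, 1 without dorsal E7 replicate 2, 2 without dorsal E9 replicate 1 and 6 without dorsal E9 replicate 2, whereas the higher calls were 11 or 12.

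The hedgehog ligand and a receptor that is also a target of the pathway rose. SHH, the ligand made in the bud epithelium, was at 0 and 0.230 CPM at E7, near the detection limit, and at 3.37 and 2.77 CPM at E9 (log2 change 1.87, SE 0.29, adjusted p = 5.02e-04). PTCH1, the receptor that hedgehog signals induce, encoded on Z, stood at 45.0 and 56.0 CPM and then at 290 and 340 CPM (2.62, SE 0.19). All E9 values of both genes lay above all E7 values, as in every row called higher. SCUBE3 and SCUBE2, which help release hedgehog ligands, rose by 2.06 and 1.33. GLI1, the transcriptional effector most dependent on the signal, was higher (0.97, adjusted p = 0.0118), but its call was lost without dorsal E7 replicate 1 (adjusted p = 0.118) or dorsal E9 replicate 2 (adjusted p = 0.108). The transducers SMO, GLI2 and GLI3 and the co-receptors BOC and CDON had changes of -0.59 to 0.31 and were not called. CDON (-0.59) was called lower with edgeR (adjusted p = 0.0123), DESeq2 (9.33e-04), without the thigh libraries (0.0102) and with only the dorsal libraries (0.00122). HHIP (0.75) and DISP1 (0.52), not called in the main fit, were called higher in the same settings. GLI3 (0.31) was called higher with only the dorsal libraries (0.049). Of the 18 tested members, 6 (33.3%) were higher, against 12.2% of all rows, and 0 lower. By unadjusted p under 0.05 the counts were 8 and 1. Under the other settings 5 to 9 were higher and 0 to 2 lower.

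NOTCH ligands rose. Of 20 tested pathway genes 7 (35%) were higher, against 12.2% of all rows, and 0 lower. At an unadjusted p under 0.05 the counts were 10 and 0. JAG1 stood at 12.4 and 15.6 CPM at E7 and at 209 and 239 CPM at E9 (log2 change 3.91, SE 0.19, adjusted p = 3.12e-08). DLL1, a ligand that marks feather primordia in chick, stood at 6.77 and 11.1 CPM and then at 66.4 and 88.7 CPM (3.0, SE 0.21). JAG2 rose by 1.82 (SE 0.33), and HEY1, a target of the receptors, by 1.93 (SE 0.21). The 3 ligands and the target separated the ages fully, as every called row did. The list's higher calls were 4 without dorsal E7 replicate 2 or without dorsal E9 replicate 1.

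Of 25 FGF pathway genes 6 (24%) were higher and 2 (8%) lower, the latter share near the 7.71% of all rows. The 2 lower calls were lost without dorsal E7 replicate 2 or dorsal E9 replicate 1. FGF7, a dermal ligand for epithelial receptors, stood at 18.2 and 21.6 CPM at E7 and at 103 and 92.2 CPM at E9 (2.25, SE 0.23). FGF10, on Z, FGF16 and FGF18 rose by 1.14 to 1.75, and the decoy-like receptor FGFRL1 by 2.24. In retinoic acid handling, 4 of 14 genes (28.6%) were higher and 1 (7.14%) lower, against 12.2% and 7.71% of all rows. The lower call was lost without dorsal E7 replicate 1 or dorsal E9 replicate 2. Without dorsal E9 replicate 1, 2 were higher. CYP26B1, which degrades retinoic acid, stood at 6.77 and 6.59 CPM and then at 62.7 and 58.4 CPM (3.0, SE 0.19), and STRA6, the receptor that takes up retinol, rose by 2.13 (SE 0.29).

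Of 32 tested genes of dermal condensation 14 (43.8%) were higher and 3 (9.38%) lower, against 12.2% and 7.71% of all rows. Their median was 0.59. The list was drawn up with results of these samples known, so that its direction is no independent evidence. Besides TRPS1, FOXD1, TFAP2C and TNC, the higher genes included CXCL12, a chemokine of mesenchyme, at 6.48 and 8.02 CPM at E7 and 99.4 and 97.9 CPM at E9 (3.60, SE 0.18, adjusted p = 3.29e-08). SOX18, a factor of dermal papillae in mice and of endothelium, stood at 26.6 and 30.1 CPM and then at 345 and 369 CPM (3.61, SE 0.22). Enpp2, which makes lysophosphatidic acid, rose by 2.55, and ALPL, the alkaline phosphatase used to stain dermal papillae in mammals, by 2.17. All of them had ages that did not overlap, as in every called row. NCAM1, an adhesion molecule of condensed dermis, stood at 131 and 136 CPM and then at 309 and 332 CPM in the more abundant of its rows (1.26, SE 0.18). The 3 lower calls numbered 1 without dorsal E7 replicate 2 or dorsal E9 replicate 1, and 0 without either of the other 2 libraries.

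Matrix genes changed in both directions. Of 33 collagens 12 (36.4%) were higher and 4 (12.1%) lower, against 12.2% and 7.71% of all rows, with a median of 0.45. COL18A1, a basement membrane collagen, stood at 98.0 and 93.9 CPM at E7 and at 739 and 654 CPM at E9 (2.84, SE 0.25, adjusted p = 4.33e-06). COL13A1, a transmembrane collagen, rose by 2.83, and COL4A6 and COL4A1, of basement membranes, by 2.63 and 1.37. COL3A1, a fibrillar collagen of dermis, rose by 1.13 (SE 0.20), the only higher call among 7 fibrillar collagens. COL9A2, known from cartilage, fell from 15.9 and 8.58 CPM to 2.76 and 2.21 CPM (-1.87, SE 0.31). The lower calls numbered 2 without dorsal E7 replicate 2 and 1 without dorsal E9 replicate 1. Among metalloproteases and their inhibitors 11 of 27 (40.7%) were higher and 3 (11.1%) lower. ADAMTS19, on Z, rose by 3.80 and ADAMTS9 by 2.53, while ADAMTS8 fell from 68.2 and 69.0 CPM to 11 and 7.85 CPM (-2.76, SE 0.36). The lower calls there numbered 2 without any 1 dorsal library. Of 12 small leucine-rich proteoglycans 3 (25%) were higher and 1 (8.33%), PODN, lower, the latter share near the 7.71% of all rows. ECM2 rose by 1.34, and 1 member was higher without either dorsal E7 library or without dorsal E9 replicate 1.

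Guidance genes included several secreted semaphorins that rose. SEMA3C stood at 38.2 and 46.2 CPM at E7 and at 243 and 239 CPM at E9 (2.49, SE 0.19, adjusted p = 9.89e-07). SEMA3A, in the more abundant of its rows, rose by 2.70 and SEMA3D by 2.19. SLIT2, a ligand of ROBO receptors, stood at 21.6 and 26.9 CPM and then at 92.3 and 90.1 CPM (1.88, SE 0.28), while ROBO3 was among the largest decreases. UNC5D, a netrin receptor, rose from 2.43 and 1.99 CPM to 22 and 39.4 CPM (3.25, SE 0.29). Over the list, 13 of 54 (24.1%) were higher and 5 (9.26%) lower, against 12.2% and 7.71% of all rows. The lower calls were 3 without dorsal E7 replicate 1 or dorsal E9 replicate 1, and the other settings gave up to 21 higher and 12 lower. Of 19 HOX genes 2 (10.5%) were higher, near the 12.2% of all rows, and 0 lower, with 2 and 2 at an unadjusted p under 0.05, and none was called without dorsal E7 replicate 1, dorsal E7 replicate 2 or dorsal E9 replicate 2 except HOXC12, lower without the last of these (-1.18).

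**Figure D3:**
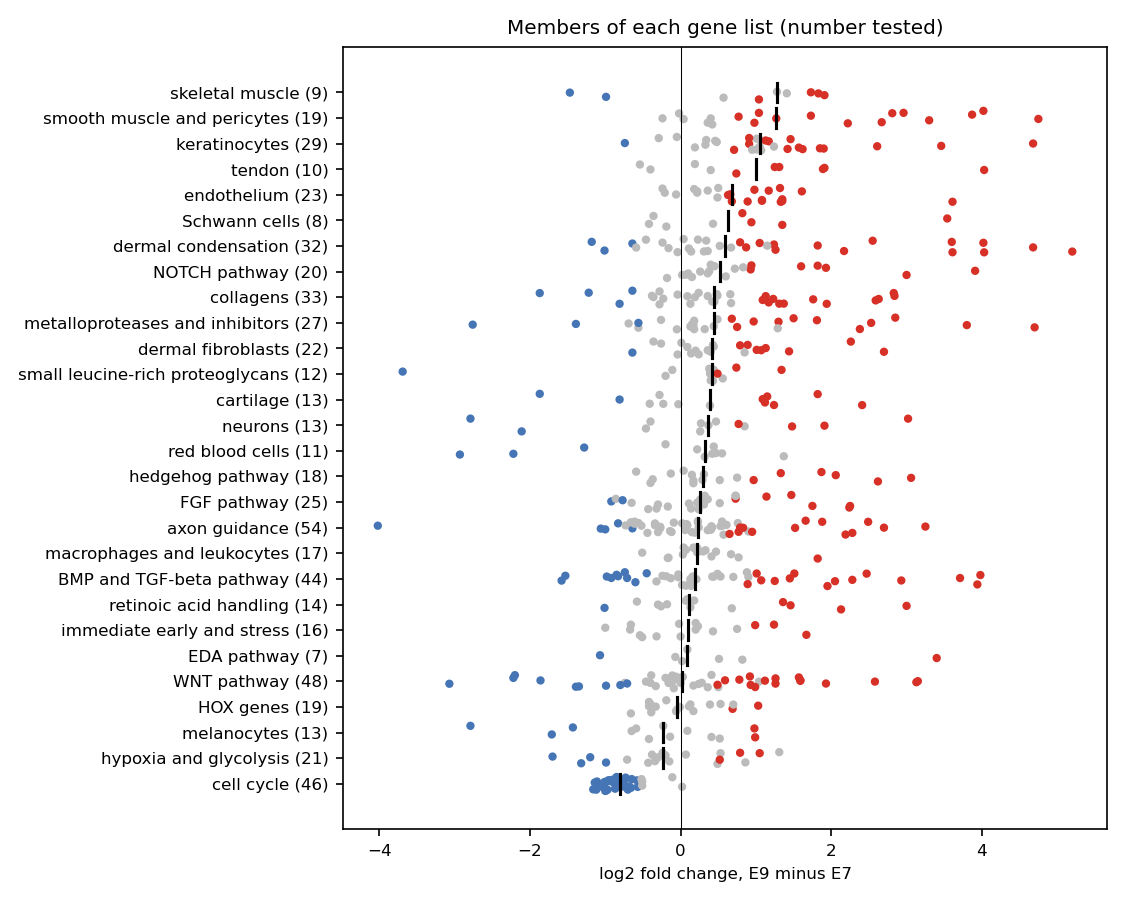
Log2 change from E7 to E9 of every tested member of the 28 gene lists, with the number of members in brackets. Red points were called higher at E9, blue points lower and grey points were not called; black bars are list medians, which run from -0.81 for cell cycle genes to 1.28 for skeletal muscle markers.

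Cell cycle genes fell as a group. Of 46 members tested, 38 were lower at E9 and 0 higher, against 7.71% lower among all rows, and at an unadjusted p under 0.05 the counts were 44 and 0. Their median change was -0.81, and -0.83 with median-of-ratios scaling or quantile normalization. The called changes were narrow, between -1.16 and -0.57. Summed over the list, the genes stood at 7938 and 7917 CPM at E7 and at 4180 and 4988 CPM at E9. Both phases took part, with 17 of 23 genes of S phase and 21 of 23 of G2 and M phase lower.

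MCM2, a subunit of the replicative helicase, stood at 311 and 297 CPM at E7 and at 151 and 158 CPM at E9 (log2 change -0.97, SE 0.15, adjusted p = 5.22e-04). PLK1, a kinase of mitosis, stood at 277 and 266 CPM and then at 117 and 134 CPM (-1.11, SE 0.19). KIF23, a motor of cytokinesis, stood at 219 and 212 CPM and then at 95.1 and 120 CPM (-1.01, SE 0.16). Like every called row the 3 genes had no overlap between ages, and their replicates lay close together at E7. GINS2 and FEN1, which act at the replication fork, the cyclin CCNB2 and the kinase AURKA fell by 0.94 to 1.14. The count of lower calls depended on single libraries: it was 20 without dorsal E7 replicate 1, 17 without dorsal E7 replicate 2, 14 without dorsal E9 replicate 1 and 32 without dorsal E9 replicate 2. Under the other settings it was 37 to 44.

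**Figure D4:**
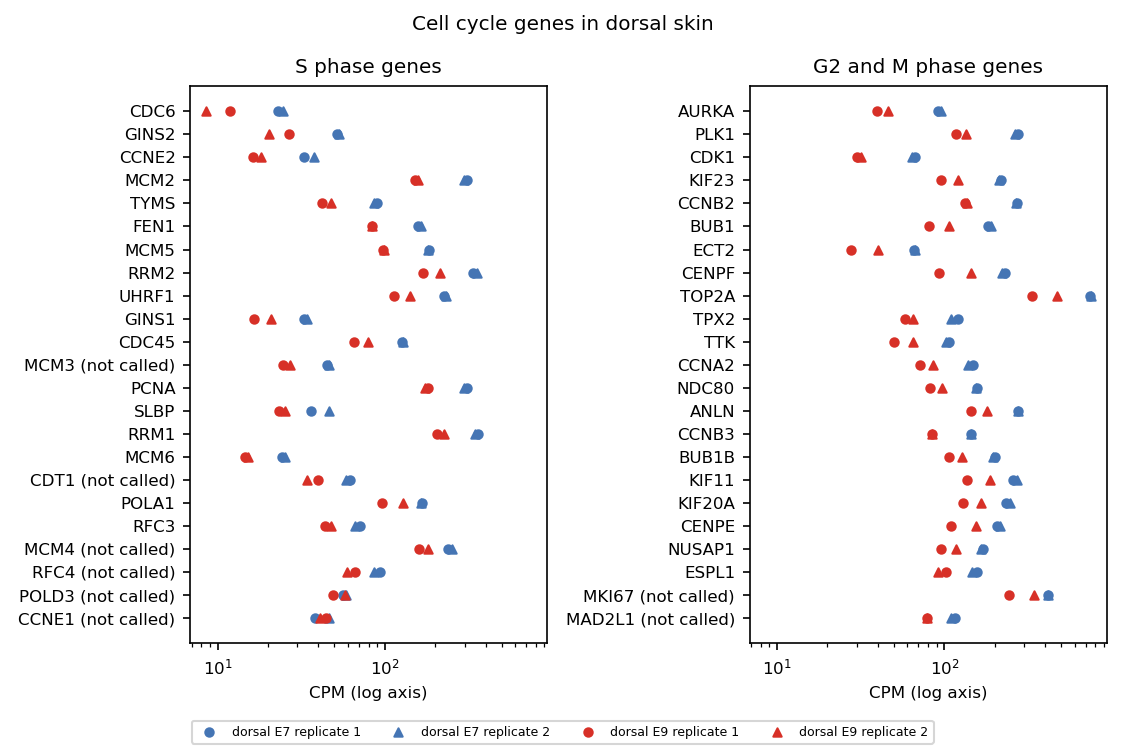
CPM on a log axis in the 4 dorsal libraries for the tested genes of S phase (left) and of G2 and M phase (right), ordered by their change. In each called gene both red points (E9) lie left of both blue points (E7); genes that missed the threshold are marked.

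Markers of smooth muscle and pericytes were higher at E9 in most of their measured members. Of 19 tested (24 listed), 13 (68.4%) were higher, against 12.2% of all rows, and 0 lower. Their median was 1.27, and the unadjusted counts were also 13 and 0. Summed over the list, they stood at 584 and 584 CPM in dorsal E7, at 1794 and 1625 CPM in dorsal E9 and at 528 to 1013 CPM in the 8 other libraries. MYH11, the smooth muscle myosin heavy chain, stood at 12.1 and 9.72 CPM at E7 and at 194 and 153 CPM at E9 (log2 change 3.87, SE 0.23, adjusted p = 1.95e-07). TAGLN, an actin-binding protein of smooth muscle, stood at 1.47 and 1.02 CPM and then at 50.9 and 24.5 CPM (4.02, SE 0.39). MYOCD, the coactivator that switches on smooth muscle genes, stood at 0.880 and 1.54 CPM and then at 59.0 and 56.7 CPM in the more abundant of its rows (4.75, SE 0.27). These 3 genes were low in both E7 libraries and high in both E9 libraries. MYLK, a myosin kinase, in the more abundant of its rows, rose by 2.96, SYNPO2 by 2.81, LMOD1 by 2.67 and ACTG2 by 2.22. RGS5, a pericyte marker, rose from 7.14 and 8.02 CPM to 81.9 and 85.1 CPM (3.30, SE 0.18).

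Of 23 endothelial markers 14 (60.9%) were higher, against 12.2% of all rows, and 0 lower. Their median was 0.68, and they summed to 870 and 883 CPM at E7 and 2152 and 1845 CPM at E9. EGFL7, a secreted protein of vessels, stood at 33.1 and 36.4 CPM and then at 124 and 93.9 CPM (1.61, SE 0.20), and PECAM1, an endothelial adhesion molecule, at 73.0 and 89.7 CPM and then at 287 and 151 CPM (1.35, SE 0.27). FLT1, MMRN2 and LYVE1 rose by 1.17 to 1.35. The higher calls numbered 9 without dorsal E7 replicate 1 or replicate 2, and 8 without dorsal E9 replicate 1.

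Of 29 keratinocyte markers 14 (48.3%) were higher and 1 (3.45%) lower, against 12.2% and 7.71% of all rows. With a median of 1.05 and 26 of the 29 above 0, they summed to 361 and 420 CPM at E7 and to 730 and 650 CPM at E9. Most of the rise of this sum lay in TFAP2C, also on the dermal condensation list, and KLF4. TFAP2C alone stood at 4.05 and 3.92 CPM and then at 138 and 116 CPM. The sum was 552 to 1169 CPM in the 8 libraries of other skin, so it was not particular to dorsal E9. KRT5, a basal keratin, stood at 1.03 and 1.25 CPM and then at 13.1 and 11.1 CPM (2.61, SE 0.48, adjusted p = 0.00168). KLF4, a factor of epidermal differentiation on Z, stood at 11.3 and 15.2 CPM and then at 181 and 131 CPM (3.46, SE 0.27). PKP1, a desmosomal protein, rose by 1.90 from 1.25 and 1.02 CPM. The higher calls numbered 5 without dorsal E7 replicate 1, 8 without dorsal E7 replicate 2, 5 without dorsal E9 replicate 1 and 7 without dorsal E9 replicate 2. Dermal fibroblast markers were higher in 8 of 22 cases (36.4%) and lower in 1 (4.55%). Their sums were 18960 and 16961 CPM at E7 and 20961 and 19379 CPM at E9. FBLN2, a matrix protein, rose by 2.70 (SE 0.17) and MFAP5 by 2.26 (SE 0.23). Their higher calls numbered 5 without dorsal E7 replicate 1 or replicate 2 and 4 without dorsal E9 replicate 1, and the lower calls of both lists were lost without any 1 dorsal library.

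Markers of other cell types moved as well, to be read against 12.2% higher and 7.71% lower among all rows. Schwann cell markers (8 tested, 4 higher, 0 lower) summed to 230 and 249 CPM at E7 and to 578 and 646 CPM at E9. NGFR, the low-affinity neurotrophin receptor that skin mesenchyme also expresses, stood at 15.6 and 18.0 CPM and then at 190 and 224 CPM (log2 change 3.54, SE 0.25). Without dorsal E7 replicate 1 or dorsal E9 replicate 1, 2 Schwann cell markers were higher. Tendon markers (10 tested, 6 higher, 0 lower) summed to 620 and 651 CPM and then to 1359 and 1435 CPM, and THBS2 and THBS4, the latter on Z, rose by 1.91 and 1.89. Most of the rise of this sum lay in TNC, also on the dermal condensation list, at 29.0 and 27.9 CPM and then 454 and 507 CPM. The sum was 1656 to 3253 CPM in the 8 libraries of other skin. TNMD (-0.40) was not called, but it was lower with edgeR (adjusted p = 0.0223) and DESeq2 (0.00512). Skeletal muscle markers (9 tested, 4 higher, 2 lower) stood at 80.8 and 63.3 CPM and then at 289 and 195 CPM. Of these sums MEF2C, a muscle and vessel factor on Z, held 53.2 and 40.2 CPM and then 141 and 171 CPM (1.73). ACTA1 and TTN, also higher, stood at 45.4 and 19.9 CPM in dorsal E9 replicate 1 but at 13.2 and 3.03 CPM in replicate 2. PAX3, a factor of muscle and pigment precursors, fell by 1.47. The higher calls of that list were 2 without dorsal E7 replicate 1, 1 without dorsal E7 replicate 2, 1 without dorsal E9 replicate 1 and 7 without dorsal E9 replicate 2, and those of the tendon list were 4 without either dorsal E7 library or dorsal E9 replicate 1.

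Markers of pigment cells, neurons, blood and cartilage held calls in both directions or few calls. Among all rows 12.2% were higher and 7.71% lower. Melanocyte markers summed to 261 and 251 CPM at E7 and to 172 and 156 CPM at E9. Of 13, 3 (23.1%) were lower and 2 (15.4%) higher, and the higher calls were lost without any 1 dorsal library. PMEL, a melanosome protein, fell from 121 and 113 CPM to 20.1 and 12.9 CPM (-2.79, SE 0.43, adjusted p = 5.15e-04). This fall in CPM exceeded that of the sum, so the sum of the other melanocyte markers did not fall. Neuronal markers summed to 197 and 200 CPM and then to 97.7 and 137 CPM, with 4 of 13 higher and 2 lower. GAP43, of growing axons, fell from 32.9 and 22.9 CPM to 3.37 and 2.87 CPM (-2.79, SE 0.39), and the tubulin TUBB3 fell by 2.11 (SE 0.37). With a filter of 5 CPM, 0 neuronal markers were higher. Red blood cell markers had 3 of 11 lower and 0 higher, with sums of 851 and 1295 CPM and then 957 and 932 CPM, and a median of 0.32, 7 of the 11 being above 0. The globins HBE and HBG1 fell by 2.22 and 2.93 and GYPC, a red cell membrane protein, by 1.28, whereas HBG2 (0.22) and HBE1 (0.55) were not called. HBAA, at 5.77 and 0.05 CPM in dorsal E9, was called higher without replicate 2 of that age (2.71). Leukocyte markers had 1 of 17 (5.88%) higher and 0 lower (3 and 0 at an unadjusted p under 0.05), with sums of 212 to 348 CPM in the 4 libraries. Cartilage markers had 6 of 13 higher and 2 lower and sums of 777 to 830 CPM in the 4 libraries. Without dorsal E7 replicate 2 or dorsal E9 replicate 2, 3 of them were higher, and without any 1 dorsal library 1 was lower. The part of these markers in the results above was not tested.

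Of 16 immediate early and stress genes 3 (18.8%) were higher and 0 lower, with 4 and 1 at an unadjusted p under 0.05. Among the higher ones was the growth factor-induced gene MYC, at 8.68 and 15.6 CPM at E7 and 39.6 and 38.9 CPM at E9 (1.67, SE 0.28). Their median was 0.10, and -0.01 with quantile normalization. Of 21 genes of hypoxia and glycolysis 3 (14.3%) were higher and 4 (19%) lower, against 12.2% and 7.71% of all rows, and 1 was higher without any 1 dorsal library. PFKP, a glycolytic kinase, fell from 326 and 284 CPM to 121 and 122 CPM (-1.32, SE 0.17), and CA9 on Z, a carbonic anhydrase, fell by 1.20. Mitochondrially encoded rows held 3.26% to 4.71% of the signal in the 4 dorsal libraries and 12.89% in thigh E9 replicate 2. The thigh replicates also had the lowest Spearman coefficient of the 6 groups, 0.970. Both thigh libraries shared the estimate of the spread, and without them 3617 rows were called.

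To see whether a change was shared with the other skin sampled at a pair of ages, the change in dorsal skin was set against that in scale skin from E9 to E11 in the same limma model. The 2 intervals start at different ages, which is part of this contrast. The changes differed in 583 rows (4.76%), of which 369 were more positive in dorsal skin and 214 more negative, and 509 of the 583 were also called in dorsal skin itself. With single libraries left out of the 2 skins the count was 237 to 503, the lowest without dorsal E7 replicate 1, followed by 278 without dorsal E7 replicate 2, 307 without scale E9 replicate 2 and 319, 350 and 362 without dorsal E9 replicate 1, scale E11 replicate 1 and scale E11 replicate 2. Without the thigh libraries it was 930.

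Several of the largest changes were greater in dorsal skin. TFAP2C rose by 4.68 in dorsal skin and stood at 8.17 and 14.0 CPM in scale E9 and 8.98 and 8.69 CPM in scale E11, a difference of changes of 4.93 (SE 0.32, adjusted p = 4.81e-06). MYH11 stood at 7.89 and 9.75 CPM and then at 8.70 and 11.7 CPM in scale skin (difference 3.69, SE 0.32, adjusted p = 4.34e-05). Edar stood at 2.70 and 9.92 CPM in scale E9 and at 7.34 and 4.27 CPM in scale E11 (difference 3.34, SE 0.58, adjusted p = 0.00482). In scale skin the libraries of the 2 ages lay close together or overlapped for these genes. The hedgehog receptor PTCH1 (adjusted p of the difference 0.00798), JAG1 (1.50e-04), SFRP2 (0.00237) and BMPER (2.69e-05) also had greater increases in dorsal skin.

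Other changes of dorsal skin did not differ detectably from those of scale skin. TRPS1 stood at 6.58 and 4.44 CPM in scale E9 and at 59.9 and 111 CPM in scale E11, and the difference of changes was 1.52 (SE 0.43, adjusted p = 0.0687). Of the 46 cell cycle genes 0 differed at an adjusted p of 0.05, against 4.76% of all rows. Their median change was -0.81 in dorsal skin and their median difference -0.47, towards a greater fall in dorsal skin. The lack of calls therefore does not show that this fall was shared. BMP6 stood at 19.2 and 18.8 CPM in scale E9 and at 93.9 and 97.8 CPM in scale E11. Those last values were in the range of dorsal E9 or above it, although its increase was greater in dorsal skin (1.70, SE 0.22, adjusted p = 6.35e-04).

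**Figure D5:**
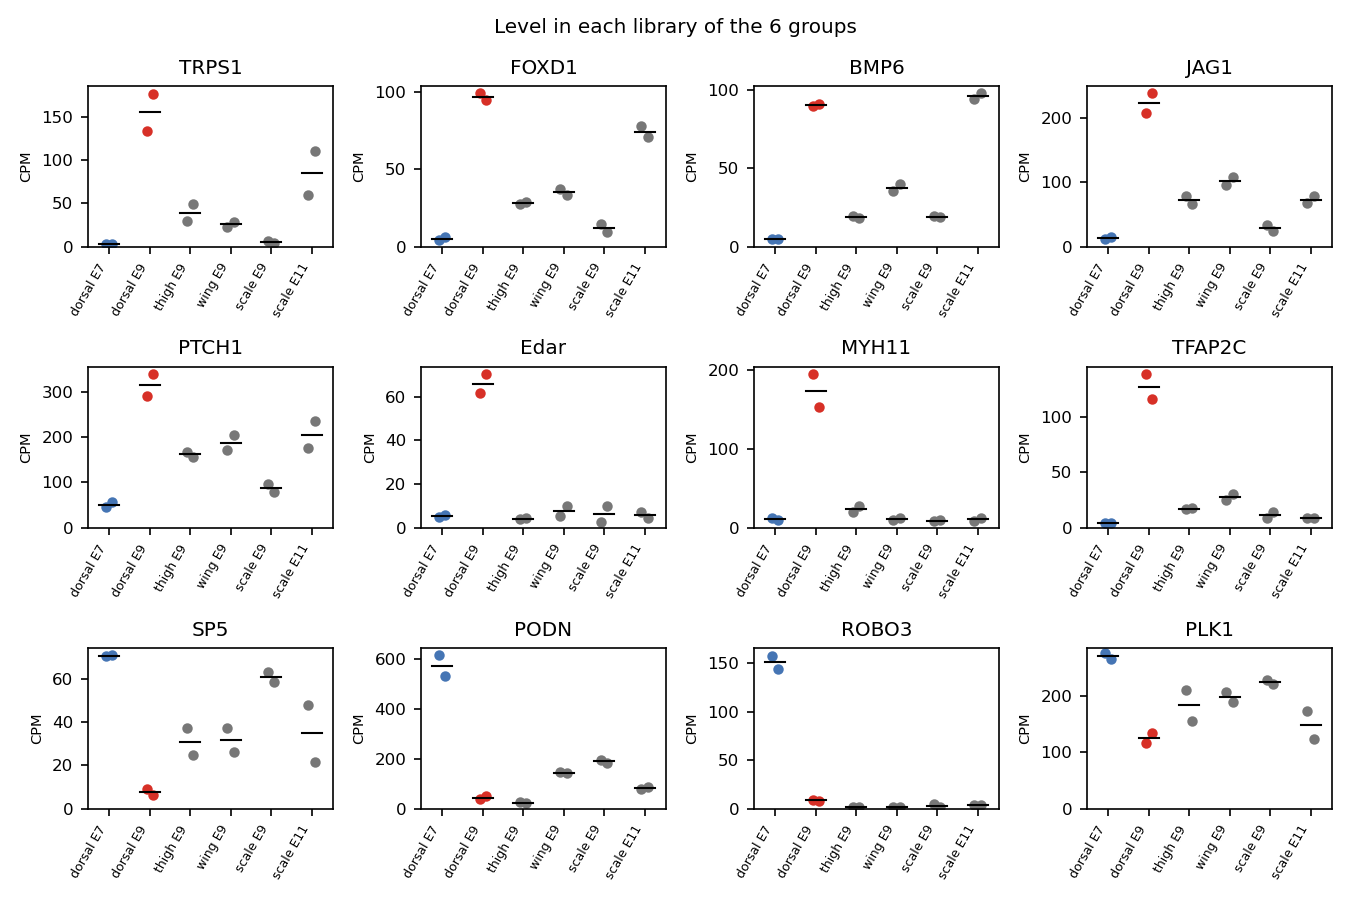
CPM of 12 genes in each of the 12 libraries, 2 per group, with the group mean as a bar; dorsal E7 is blue, dorsal E9 red and the other groups grey. MYH11, TFAP2C and Edar have their highest points in the 2 dorsal E9 libraries and ROBO3 in the 2 dorsal E7 libraries, whereas BMP6 and FOXD1 also reach 71.1 CPM or more in scale E11.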

How the data were processed

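Transcripts were measured by RNA sequencing in 12 libraries of embryonic chicken skin, 2 per group, of which the 4 dorsal ones are reported. Per the submitters' processing notes the authors used TopHat2, Partek, HTSeq and edgeR and the build galGal4, with versions and roles not given in the sources used here. The deposited table held 12297 rows of signal, which the authors gave as CPM, read counts scaled to an effective library size. Reads could be recovered from it, since in all 12 libraries 100.0% of values up to 100 CPM were whole multiples of 1 read within 0.0055 CPM. Thigh E9 replicate 2, whose column summed to 1210599 CPM against 958975 to 1010021 in the others, did not pass a second whole-read check and stayed out of the count tests. Of the rows, 317 shared a symbol with another row; for a gene with several rows the one with the highest mean was used.

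A row was tested if 2 or more libraries held 1 CPM or more of it, which left 12277. On log2(CPM + 1), limma 3.58.1 (R 4.3.3) fitted 1 mean per group over all 12 libraries with a mean-variance trend (6 residual degrees of freedom, 6.95 from the prior). Tests were two-sided, and calls had a Benjamini-Hochberg adjusted p under 0.05 over all rows tested. The 38 rows set aside stayed in the fit and the adjustment. The fit was also run on simulated data with 200 changed genes. The spread of those data was set beforehand and not taken from these libraries, so that run does not bear on the calls here.

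The comparison, settings, naming rule and 28 gene lists were chosen with earlier results of these data known. Named were the 15 genes per direction with the largest called change, at least 5 CPM in the higher group, no overlap between ages and a symbol of 1 row. Up to 4 called members per list with the largest change, the measured EDA and hedgehog genes, and 6 genes per direction with the largest difference from scale skin were also named. Further list members were named after their values were seen, mostly ones whose call held without any 1 dorsal library. A few genes that met the rule are not reported here. Chromosomes came from RefSeq names of another assembly, GRCg7b, matched by symbol for 10492 rows, so no coordinates or sequences are given.

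Other settings were pseudocounts of 0.5 and 2 CPM, no filter and one of 5 CPM, median-of-ratios scaling, quantile normalization, no trend, fewer libraries in the fit, single libraries left out, Z rows left out and the replicate number as a block. On recovered reads of 11 libraries, edgeR 4.0.16 (quasi-likelihood) and DESeq2 1.42.0 were run.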

Additional observations from a re-analysis of the deposited data

Results flagged for a closer look

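The following genes differed between skins in their change with age, by limma's test of the change in dorsal skin from E7 to E9 minus that in scale skin from E9 to E11. They are among the 6 per direction with the largest difference of genes called in both contrasts. The intervals start at different ages, and none of these differences was weighed against a cause.

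Changes were more positive in dorsal skin for TFAP2C by 4.93 on the log2 scale, for MYH11 by 3.69, for FILIP1L by 3.58, for SOSTDC1 by 3.54 and for ADAMTS17 by 3.53. FILIP1L, a relative of a filamin-binding protein, stood at 12.1 and 12.9 CPM in dorsal E7, at 188 and 177 CPM in dorsal E9 and at 18.2 to 26.0 CPM in the 4 scale libraries. SOSTDC1 stood at 1.45 to 3.74 CPM in those 4 libraries. The change of ADAMTS17 in scale skin was 1.17.

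The difference was negative for ROBO3 (-4.33), FRK (-4.23), LIX1 on Z (-4.10), BTF3 (-3.29), NRGN (-3.17) and HBG1 (-3.05). In the scale libraries FRK stood at 0 to 0.420 CPM, LIX1 at 0.230 to 0.550 CPM and NRGN at 0 to 0.490 CPM. These genes were thus too low in scale skin to fall there as they did in dorsal skin. BTF3, placed on Z by its symbol only, had the pattern of the rows set aside. It stood at 1.74 and 1.80 CPM in dorsal E9 and at 17.7 CPM or more in each other library. ROBO3 stood at 1.63 to 4.22 CPM in the 8 libraries of other skin, below the 7.96 CPM of its lower dorsal E9 library. NRGN stood at 0.700 CPM or less in those 8 libraries. HBG1, a red blood cell gene, stood at 17.7 and 20.7 CPM in dorsal E9 and at 2.39 to 35.4 CPM in those 8 libraries.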

How the results depend on the processing

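The count of 2438 rows called in dorsal skin was 1273 to 1794 with single dorsal libraries left out and 4371 with only the 4 dorsal libraries in the fit. It was 3582 with edgeR, 3597 with DESeq2, 3617 without the thigh libraries, 2314 without Z rows and 2114 to 2568 under the remaining settings, and of 2438 calls 2417 were also made with edgeR. The count of 583 rows whose change differed from scale skin was 237 to 503 with single libraries left out, 1108 with DESeq2 and 930 without the thigh libraries. The share of higher calls was 61.3% and, with quantile normalization, 51.8%. With the replicate block the counts were 2568 and 599. Differences between replicates 1 and 2 correlated at 0.02 between dorsal E7 and dorsal E9 and at -0.10 to 0.23 over all pairs of groups, so the numbers were not used as pairs. An alternative chosen after seeing the data kept 11 autosomal rows of the set-aside pattern, for 2445 and 587 calls.

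Of 289 called genes that were named or on a list, 120 lost the call without some 1 dorsal library and 29 under another setting. NEFM (-1.41) and HOXC12 (-1.18), not called with all libraries, were called lower without dorsal E9 replicate 2 and higher without dorsal E9 replicate 1 (1.95 and 2.59), against 0.27 and 0.70 with both; the cause was not tested. With 2 libraries per group, an age effect and an effect of the few embryos sampled, or of their sex, cannot be told apart.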
